A study of Mus musculus with 28 samples.

Results

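This report describes the genes that copy DNA and supply its nucleotides in mouse T cells that received antigen receptor stimulation briefly, continuously or not at all. The 40 genes were chosen by symbol, as known parts of DNA replication and deoxynucleotide synthesis, and 38 of them had a named probe set among the 12393 genes measured, with 68 probe sets in all. No probe set named Gins2 or Chaf1a was analysed here. The choice went by symbol, but it was made with earlier results of these data known.

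Before a cell enters S phase, the origin recognition complex with Cdc6 and Cdt1 loads the MCM2-7 ring onto DNA, and Cdc45 and the GINS complex then turn that ring into the active helicase. The primase with DNA polymerase alpha lays down primers, the RFC complex loads the PCNA clamp, and polymerases epsilon and delta extend the strands, which FEN1 and DNA ligase 1 finish. Deoxynucleotides come from ribonucleotide reductase, thymidylate synthase, thymidine kinase and dUTPase. Resting T cells keep many of these genes low, E2F transcription factors drive many of them at the G1/S transition, and activated T cells divide rapidly.

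The cells were CD4+ T cells carrying the AND T cell receptor transgene and CD8+ T cells carrying the OT1 transgene, all on the C57BL/6N background, so every group shares 1 of 2 transgenic receptors. In every comparison of CD8 with CD4 cells, cell type and receptor transgene therefore cannot be told apart. On day 2, cells had spent 2 days in culture with 5 ng/ml IL7, either in untreated plates (unstimulated) or on plates that carried bound antibodies to CD3 and CD28, at 10 µg/ml (stimulated), with 3 arrays in each of the 4 groups. On day 5, cells from such cultures had then spent 3 days in a host mouse. Unstimulated cells and transient cells, the latter stimulated in culture, went into antigen-free hosts, and continuous cells, also stimulated in culture, went into hosts that expressed the antigen (named dtg-O or dtg-M in the labels, which do not say which host served which cell type). The 6 day 5 groups had 3 arrays each except CD4 unstimulated and CD4 transient cells, with 2 each. All samples had IL7 in culture and were sorted, and RNA was amplified through 2 rounds before hybridisation to the Affymetrix Mouse 430A2 array. The labels call the replicates independent. Values are log2 signals per probe set after RMA, so a log2 difference of 1 is a doubling, and a signal of 1 gene is not set against that of another. In such bulk RNA, more cells in S phase and more RNA per cell cannot be told apart.

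The promoters of the 3 members with the largest day 2 change in CD4 cells, Cdc6, Uhrf1 and Mcm5, are shown because E2F-type letters stand in each. The 250 bases before the annotated start are given 5′ to 3′ on the gene's strand, from RefSeq on GRCm38.p6, with the E2F-type letters in capitals. The Cdc6 stretch lies at chr11:98907901-98908150 (plus strand), the Uhrf1 stretch at chr17:56304063-56304312 (plus strand) and the Mcm5 stretch at chr8:75109259-75109508 (plus strand).
Cdc6: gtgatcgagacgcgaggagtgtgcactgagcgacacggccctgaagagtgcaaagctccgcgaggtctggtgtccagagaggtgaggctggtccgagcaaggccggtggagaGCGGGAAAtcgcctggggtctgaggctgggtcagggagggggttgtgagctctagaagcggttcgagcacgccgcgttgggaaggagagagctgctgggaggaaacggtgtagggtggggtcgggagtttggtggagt
Uhrf1: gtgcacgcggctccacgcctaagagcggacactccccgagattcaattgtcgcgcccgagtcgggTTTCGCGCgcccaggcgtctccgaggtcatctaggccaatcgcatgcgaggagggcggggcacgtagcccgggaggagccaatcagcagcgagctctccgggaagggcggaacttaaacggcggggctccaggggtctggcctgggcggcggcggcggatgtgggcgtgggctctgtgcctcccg
Mcm5: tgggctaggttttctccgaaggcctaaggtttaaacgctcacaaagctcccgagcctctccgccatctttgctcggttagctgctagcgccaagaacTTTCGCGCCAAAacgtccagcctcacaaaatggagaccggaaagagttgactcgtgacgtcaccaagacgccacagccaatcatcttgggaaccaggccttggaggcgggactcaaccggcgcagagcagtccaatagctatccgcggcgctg
The capitals in Mcm5 are 2 overlapping matches on opposite strands. The letters searched were TTTCCCGC, TTTCGCGC, TTTGCCGC and TTTGGCGC on both strands.

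Promoter windows of 300 bases (250 before to 50 after the start) were at hand for 34 of the 38 members, in 42 windows. E2F-type letters stood in 14 of these windows, from 14 genes (33.3% of the windows), against 2.26% of all 32851 mouse promoter windows of the same length. The 14 genes were Cdc6, Cdt1, Mcm3, Mcm5, Mcm6, Mcm7, Orc1, Pola1, Pold1, Pole2, Rfc3, Lig1, Uhrf1 and Dnmt1. CCAAT, the NF-Y box, stood in 57.1% of the member windows and 37.4% of all windows. TTTGAA, the cell cycle homology region of genes of late S phase and mitosis, stood in 11.9% and 17.9%. Median GC content was 58.0% in the member windows and 52.7% in all windows. Short stretches around the letters show the shared core in 5 further members, again on the strand of each gene: Mcm6 at chr1:128359794-128359825 (minus strand), Mcm7 at chr5:138172031-138172058 (minus), Orc1 at chr4:108579417-108579444 (plus), Pola1 at chrX:93632276-93632303 (minus) and Dnmt1 at chr9:20952825-20952852 (minus).
Mcm6: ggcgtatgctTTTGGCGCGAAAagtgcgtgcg
Mcm7: atttcgaaccGCGGGAAAcagggtgtcc
Orc1: tcggttagtgGCGCGAAAagttttctcc
Pola1: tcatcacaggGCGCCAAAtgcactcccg
Dnmt1: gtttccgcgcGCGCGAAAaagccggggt
In the Mcm6 stretch a forward and a reverse match overlap. A match is a description of letters and not a measured binding site. The 14 members with the letters and the 20 without them had median day 2 changes of 2.10 and 2.90 (log2) in CD4 cells, and of 2.62 and 2.80 in CD8 cells. In continuous minus transient cells on day 5 the medians were 1.31 and 1.63 in CD4 cells and 1.99 and 1.82 in CD8 cells, the other order.

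All arrays carried T cell transcripts, with a mean log2 signal of the 5 measured pan T genes between 10.23 and 12.43. The third unstimulated day 2 array of each cell type stood apart. Their medians over all probe sets were 4.83 and 4.97, against 6.29 to 6.53 in the other 26 arrays, and the third CD4 array read 9.88 for Cd8a while the third CD8 array read 5.78, each against its label. Cd8b1 read 10.50 in the third CD4 and 4.79 in the third CD8 array. Cd4 read 5.40 and 7.02 and Zbtb7b, a CD4 lineage marker, 5.23 and 6.88, again against the labels. Whether the 2 labels were exchanged was not tested, and the arrays were kept as labelled. Day 2 counts, and the changes of the leading members, are therefore given with and without both of these arrays. The gap between 3' and 5' probe sets of beta-actin, which grows when RNA is short or degraded, was 2.28 to 4.30 in day 2 unstimulated arrays and 1.11 to 1.69 in stimulated ones. On day 5 it was 2.42 to 2.73 in CD4 transient and 1.92 to 2.44 in CD8 unstimulated arrays, and 0.31 to 1.02 in the other 4 groups. The mean of the 8 measured B cell markers was 7.19 and 8.78 in the CD4 transient arrays, against 5.00 to 5.71 in CD4 unstimulated and 5.03 to 5.09 in CD4 continuous arrays. The mean of the 10 myeloid markers varied within groups, from 4.97 to 10.05 among CD8 unstimulated arrays.

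**Figure D1:**
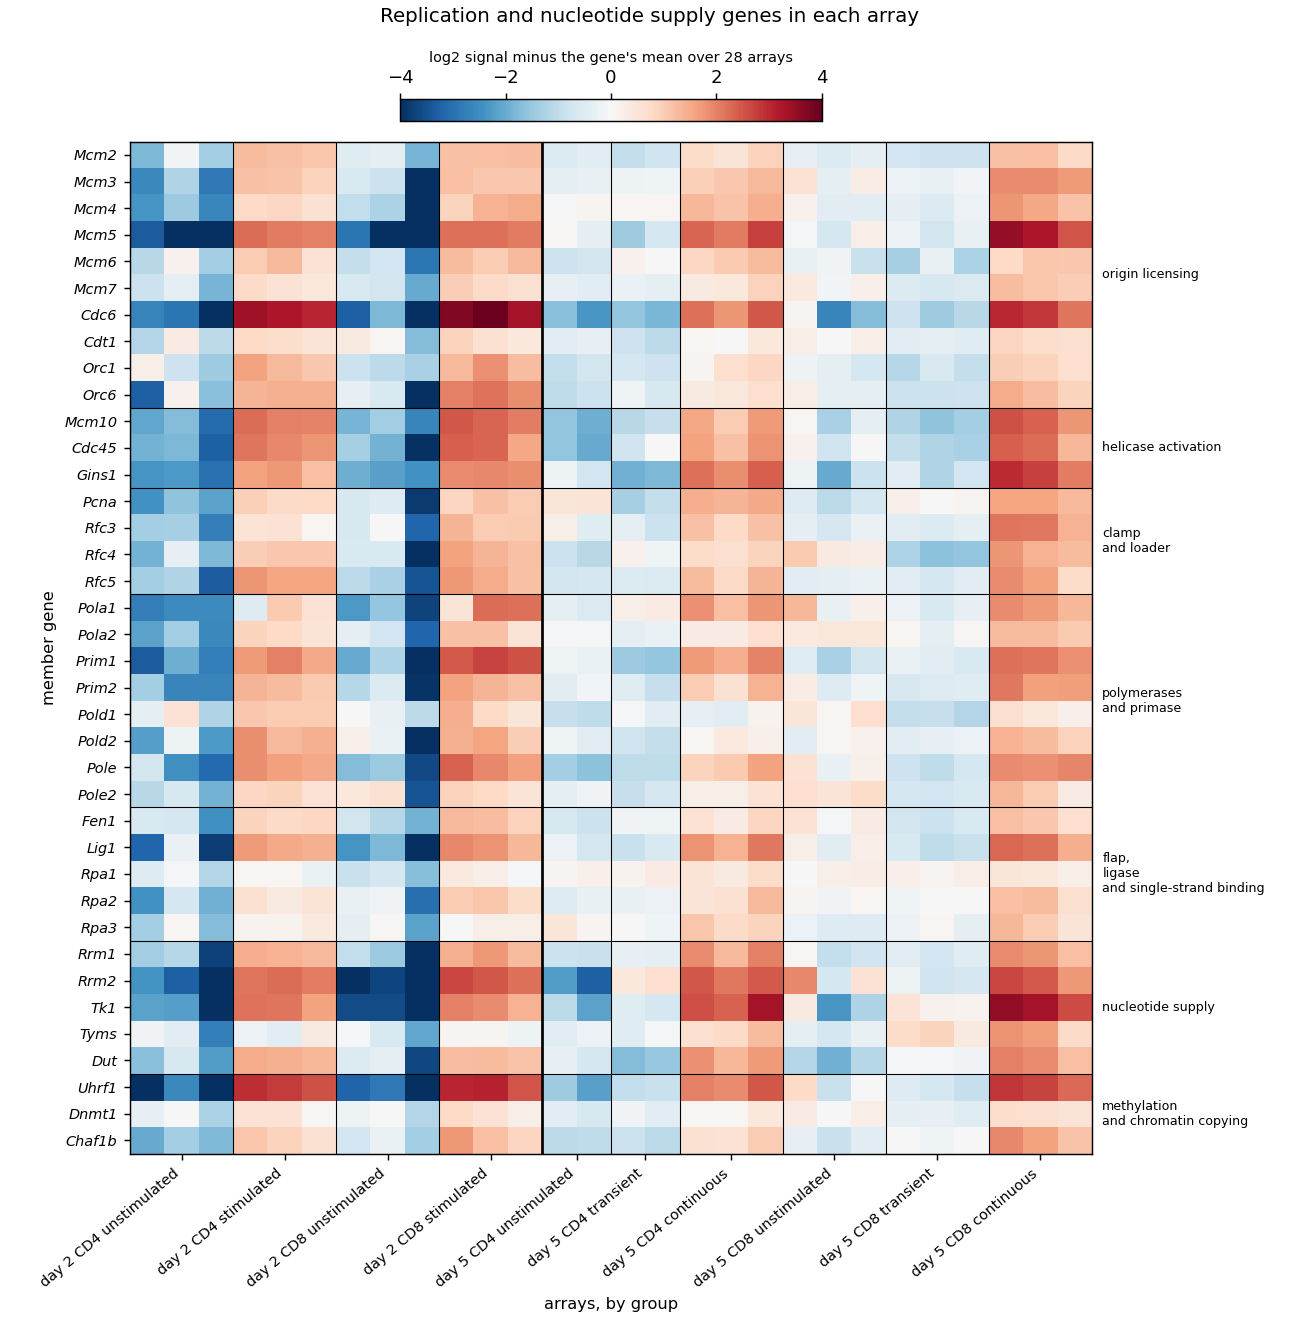
Heat map of the log2 signal of the 38 measured members (rows, in role groups) in each of the 28 arrays (columns, by group), each row minus that gene's mean over all arrays. Red columns are the 6 day 2 stimulated and the 6 day 5 continuous arrays, and the third unstimulated day 2 arrays hold the deepest blue (colours end at 4 in either direction).

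After 2 days in culture, most replication genes were higher in receptor-stimulated than in unstimulated cells of both types. In CD4 cells 24 of 38 members passed the test upward and 0 downward, and in CD8 cells 28 and 0 (limma, Benjamini-Hochberg adjusted p below 0.05 over 12393 genes). The background was 10.7% of all genes called up and 0.718% called down in CD4 cells, and 7.49% and 0.863% in CD8 cells. All 38 members had a higher mean after stimulation in both cell types, with a median change of 2.90 (log2) in CD4 cells and 2.99 in CD8 cells, against 0.14 over all genes in each. With median centring the median of all genes moved to -0.48 in both cell types and its calls to 2173 up and 3727 down in CD4 cells and 1892 up and 3091 down in CD8 cells, while the members' medians were 2.28 and 2.36. Without the third unstimulated array of each cell type, 34 and 32 members passed upward, with medians of 2.65 and 2.08. Calls over all genes were then more as well, with 3251 up and 4888 down in CD4 cells and 2040 and 2651 in CD8 cells. The medians of all genes were then -0.313 and -0.222. In CD8 cells, leaving out the first or the second stimulated array left 16 members, where 403 and 364 of all genes were called up. The beta-actin gap also parted the groups, at 2.28 to 4.30 in unstimulated and 1.11 to 1.69 in stimulated arrays, and its part was not tested.

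Cdc6 had the largest change of any member. Cdc6, the ATPase that brings the MCM ring to origins, read 5.23, 4.99 and 2.96 in the unstimulated CD4 arrays and 11.29, 11.15 and 10.96 in the stimulated ones. The CD8 arrays read 4.63, 6.11 and 3.47 without and 11.62, 11.83 and 11.23 with stimulation. The groups did not overlap, and Cdc6 rose by 6.74 ± 0.68 (log2, SE) in CD4 cells (limma adjusted p = 6.94e-05) and 6.82 ± 0.68 in CD8 cells (adjusted p = 5.56e-05), a fold of 107 and 113. Without the third unstimulated array of each cell type the changes were 6.03 and 6.19. Mcm5, a subunit of the ring, read 5.33, 4.17 and 3.83 in unstimulated and 10.90, 10.73 and 10.67 in stimulated CD4 arrays, a rise of 6.33 ± 0.59 (limma adjusted p = 4.67e-05). In CD8 cells it rose by 6.29 ± 0.59 (limma adjusted p = 3.43e-05). Without the third arrays Mcm5 changed by 6.02 and 5.61 (CD4, then CD8).

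The other ring subunits changed by less than Mcm5. Mcm2 rose by 2.29 and 2.10 (CD4, then CD8, log2), Mcm4 by 2.89 and 3.36 and Mcm7 by 1.62 and 1.90. Mcm6 passed the test in CD8 cells (2.73) and not in CD4 cells (1.73, limma adjusted p = 0.0707), and Mcm3 in neither (3.29 and 3.67) with all arrays, though both passed in both cell types without the third arrays. Orc1, the largest origin recognition subunit, rose by 2.00 and 2.52, at a dim signal near the 27th percentile of genes. Orc6 rose in CD8 cells (3.67) and stood at 2.99 in CD4 cells. Cdt1, which loads the ring beside Cdc6 and is also destroyed as protein during S phase, had the smallest change of the group. It read 10.71, 12.18 and 10.81 in unstimulated and 12.67, 12.56 and 12.39 in stimulated CD4 arrays and 12.22, 11.94 and 10.13 in unstimulated and 12.79, 12.49 and 12.28 in stimulated CD8 arrays. Each stimulated array lay above the unstimulated ones of its cell type, by little in places, and its changes of 1.30 and 1.09 did not pass. Without the third arrays the changes were 2.15 and 1.63 for Mcm2, 2.97 and 1.87 for Mcm3, 2.66 and 2.37 for Mcm4, 2.94 and 2.49 for Orc6 and 1.09 and 0.44 for Cdt1, which then passed in CD4 cells.

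All 3 measured helicase activation genes rose in both cell types. Mcm10, which helps to start the helicase, read 6.17, 6.50 and 5.15 in unstimulated and 10.48, 10.25 and 10.22 in stimulated CD4 arrays and rose by 4.38 there and 4.25 in CD8 cells. Cdc45 rose by 4.27 and 4.48 and Gins1 by 4.05 and 4.07. Gins1 read 6.44, 6.23 and 5.97 in unstimulated and 10.28, 10.32 and 10.25 in stimulated CD8 arrays. With the third arrays left out, Mcm10 changed by 3.98 and 3.91, Cdc45 by 3.80 and 3.70 and Gins1 by 3.83 and 3.95.

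Of the clamp and its loader, Pcna and Rfc5 rose in both cell types and Rfc3 and Rfc4 in CD8 cells. Pcna, the sliding clamp, read 9.98, 10.79 and 10.25 in unstimulated and 13.34, 13.15 and 13.19 in stimulated CD4 arrays and rose by 2.89 and 2.67. Rfc5 read 8.19, 8.33 and 6.21 in unstimulated and 11.31, 11.10 and 11.12 in stimulated CD4 arrays and rose by 3.60 and 3.39. Rfc3, the loader subunit with the smallest change in both cell types, read 5.34, 5.35 and 3.95 in unstimulated and 7.22, 7.27 and 6.77 in stimulated CD4 arrays (2.20, limma adjusted p = 0.0542). Its CD4 arrays were fully separated even so. Without the third arrays all 4 genes passed in both cell types, with 2.85 and 1.59 for Pcna, 2.91 and 2.64 for Rfc5, 2.16 and 1.98 for Rfc4 and 1.74 and 1.46 for Rfc3.

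Primase led the polymerases. Prim1, the catalytic primase subunit, read 6.47, 7.85 and 7.03 in unstimulated and 11.52, 11.81 and 11.33 in stimulated CD4 arrays and 7.79, 8.59 and 4.14 in unstimulated and 12.25, 12.52 and 12.35 in stimulated CD8 arrays. It rose by 4.44 ± 0.85 (limma adjusted p = 0.00538) and 5.53 ± 0.85 (limma adjusted p = 0.00148). Its partner Prim2 rose by 3.46 and 3.24, Pola1 by 2.99 and 4.16, Pola2 by 2.77 and 2.39 and Pole, the catalytic subunit of the leading strand polymerase, by 3.76 and 4.25. The stimulated Pola1 arrays were spread, at 7.37, 8.92 and 8.44 in CD4 and 8.40, 10.10 and 10.07 in CD8 cells, the first array being lowest in each. Pold1 (1.38 and 1.36), Pold2 (3.09 and 2.86) and Pole2 (1.97 and 1.56) passed in neither cell type with all arrays. Pold1, the catalytic subunit of polymerase delta and the smallest change of the group, read 9.05, 9.98 and 8.20 in unstimulated and 10.50, 10.43 and 10.42 in stimulated CD4 arrays. Without the third arrays the changes were 4.39 and 4.18 for Prim1, 3.23 and 2.21 for Prim2, 3.03 and 3.57 for Pola1, 2.50 and 1.52 for Pola2 and 3.25 and 3.58 for Pole. Pold1 (0.94 and 1.06) then passed in both cell types, and Pold2 (2.73 and 1.36) and Pole2 (1.63 and 0.23) in CD4 cells.

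Among the genes that finish and protect the strands, Fen1, the flap nuclease, rose by 2.08 and 2.42, and Lig1, the ligase of lagging strand fragments, by 3.96 and 4.61. Lig1 read 7.25, 10.14 and 6.66 in unstimulated and 12.13, 11.94 and 11.85 in stimulated CD4 arrays. The subunits of RPA, which coats single-stranded DNA also in repair, did not pass in either cell type. Rpa1 read 12.23, 12.66 and 11.58 in unstimulated and 12.84, 12.83 and 12.47 in stimulated CD4 arrays. Its change was 0.56 in CD4 and 1.29 in CD8 cells. Rpa3 had 1.23 and 0.96 and Rpa2 2.18 and 2.11. Rpa2 passed without the third arrays in both cell types, and Rpa1 in CD8 cells. Lig1 then changed by 3.28 and 3.75 and Fen1 by 1.48 and 2.10.

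Of the nucleotide supply genes, 4 of 5 rose in each cell type. Rrm2, the regulated subunit of ribonucleotide reductase, read 7.75, 6.90 and 5.21 in unstimulated and 12.30, 12.38 and 12.19 in stimulated CD4 arrays and 6.12, 6.48 and 5.00 in unstimulated and 12.82, 12.65 and 12.36 in stimulated CD8 arrays. It rose by 5.67 ± 0.59 and 6.74 ± 0.59 (limma adjusted p = 9.58e-05 and 2.46e-05), a fold of 51 and 107. Its partner Rrm1 rose by 3.46 and 3.64, Tk1, the S phase thymidine kinase, by 5.25 and 5.91 and Dut, which keeps dUTP out of DNA, by 2.92 and 2.73. Tyms, thymidylate synthase, read 5.17, 4.86 and 2.57 in unstimulated and 5.08, 4.87 and 5.68 in stimulated CD4 arrays, a dim probe set near the 29th percentile of genes whose groups overlapped, and its changes of 1.01 and 0.92 did not pass. Without the third arrays Rrm2 changed by 4.97 and 6.31, Tk1 by 4.15 and 5.35, Rrm1 by 2.64 and 2.72, Dut by 2.56 and 1.67 and Tyms by 0.19 and 0.34.

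Of the genes that copy methylation and chromatin, Uhrf1, which reads half-methylated DNA, read 4.87, 6.27 and 3.65 in unstimulated and 11.79, 11.63 and 11.38 in stimulated CD4 arrays and 5.63, 5.97 and 3.26 in unstimulated and 11.88, 11.91 and 11.37 in stimulated CD8 arrays. It rose by 6.67 ± 0.72 (limma adjusted p = 0.000125) and 6.77 ± 0.72 (limma adjusted p = 9.76e-05). Dnmt1, the methyltransferase that Uhrf1 brings to the fork, read 11.28, 11.60 and 10.32 in unstimulated and 12.19, 12.17 and 11.63 in stimulated CD4 arrays. Its changes of 0.93 and 0.99 did not pass, with or without the third arrays. Chaf1b, a subunit of the histone chaperone CAF-1, rose by 2.58 and 2.06. With the third arrays left out, Uhrf1 changed by 6.03 and 5.92 and Chaf1b by 2.56 and 1.78.

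The CD8 and CD4 responses to culture stimulation were compared directly. The difference of the responses was called for 0 of 38 members in either direction (limma), as for 0% of all genes up and 0% down, and had a median of 0.09 with a median SE of 0.92. CD8 and CD4 stimulated arrays differed for 0 members in either direction (limma), against 0.0242% of all genes called up and 0% called down, with a median of 0.16 and a median SE of 0.65. With errors of that size these counts do not show that the cell types were alike. Pola1, for example, stood at 1.28 ± 0.63 and Prim1 at 0.82 ± 0.85 (CD8 minus CD4, log2). With array weights, 6 members were called higher in stimulated CD8 cells, where 955 of all 12393 genes were called up and 1206 down. Without the third unstimulated array of each cell type, 1 member was called with a smaller CD8 response. In that setting 89 of all genes were called up and 219 down.

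**Figure D2:**
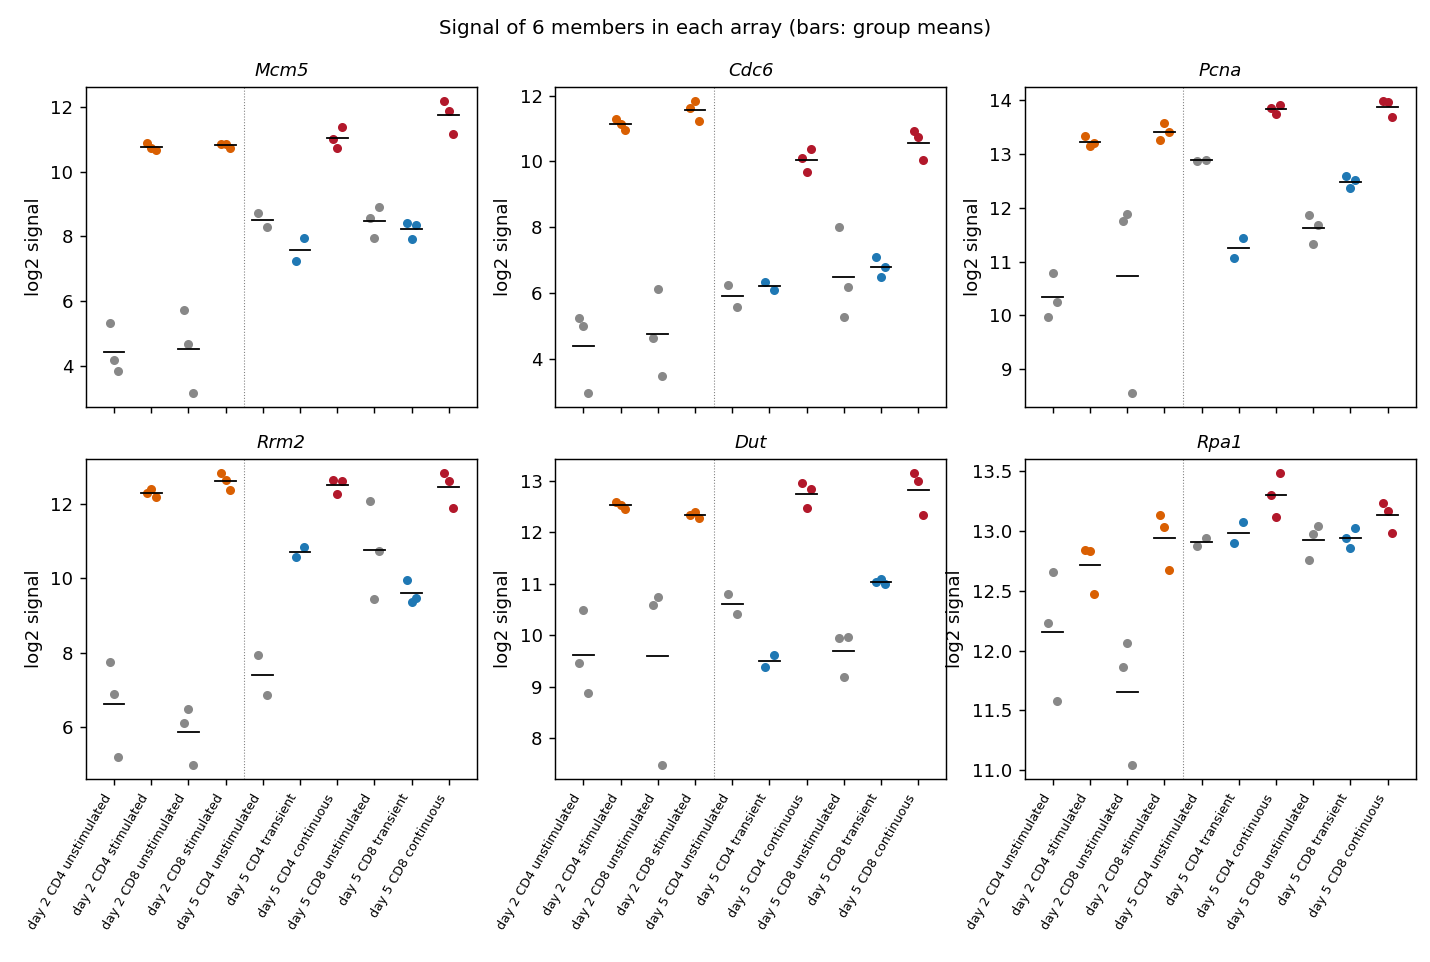
Log2 signal of 6 members (Mcm5, Cdc6, Pcna, Rrm2, Dut and Rpa1) in every array, with points for arrays and bars for group means; the dotted line parts day 2 from day 5. Stimulated and continuous groups lie highest for the first 5 genes, while the Rpa1 probe set shown changes little.

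Stimulated cells had lower replication transcripts after 3 days in an antigen-free host. In CD4 cells, day 5 transient arrays against day 2 stimulated arrays had 0 members called up and 19 called down (limma, all 28 arrays in 1 fit), where 5.67% of all genes were up and 7.08% down. Leaving out the first or second transient array gave 11 or 12 down, and a fit of the 2 groups alone gave 34. Of all 12393 genes, these fits called 390, 339 and 2834 down. In CD8 cells the same comparison gave 0 up and 26 down, against 6.25% and 6.54%. Median changes were -1.77 and -1.92. Day and place changed together, culture plate against host, so that time, host and loss of antibody cannot be told apart here.

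Cdc6 fell most (-4.93 ± 0.69 in CD4 and -4.77 ± 0.62 in CD8 cells, log2; limma adjusted p = 4.02e-05 and 9.67e-06), from 11.29, 11.15 and 10.96 to 6.34 and 6.07 in CD4 arrays and from 11.62, 11.83 and 11.23 to 7.09, 6.49 and 6.78 in CD8 arrays. Uhrf1 came next in CD4 cells at -3.70, followed by Gins1 at -3.37, Prim1 at -3.24, Mcm5 at -3.17 and Mcm10 at -3.10. In CD8 cells Mcm10 (-3.67), Uhrf1 (-3.60), Cdc45 (-3.23), Rrm2 (-3.01) and Prim1 (-3.00) followed Cdc6. Rpa1, Rpa3 (-0.33 and -0.32) and Tyms (-0.19 and 0.66) passed in neither cell type.

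Cells that met antigen in the host stood near the day 2 stimulated level. In CD4 cells, continuous arrays against day 2 stimulated arrays gave 0 members up and 1 down, against 4.21% and 4.8% of all genes, with a median of -0.09 and a median SE of 0.50. The 1 called member was Pold1 (-1.24 ± 0.35, limma adjusted p = 0.0267), with 10.50, 10.43 and 10.42 on day 2 and 9.10, 8.99 and 9.55 on day 5, and no overlap. That call was lost on leaving out any of 5 of the 6 arrays compared. In CD8 cells the counts were 0 up and 0 down (limma), against 2.25% and 2.43%, with a median of 0.09. Fits of the 2 groups alone, which do not take in the wider spread of the unstimulated day 2 arrays, called 8 up and 10 down in CD4 cells and 7 up and 4 down in CD8 cells. Of all 12393 genes, those fits called 2076 up and 2948 down in CD4 cells and 1644 up and 2192 down in CD8 cells. The wide errors of the joint fit do not show that the levels were equal.

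Within day 5, nearly every member was higher in cells from hosts with antigen than in transient cells. In CD4 cells 36 of 38 passed upward and 0 downward, where 17.6% of all genes were called up and 16.5% down. The 2 CD4 groups also differed in the beta-actin gap (2.42 and 2.73 in transient, 0.40 to 0.62 in continuous arrays), the B cell marker mean (7.19 and 8.78 against 5.03 to 5.09) and Cd4 itself (7.68 and 7.88 against 9.48 to 9.86), and their part in the changes was not tested. In CD8 cells 37 passed upward and 0 downward, where 13.6% and 13.6% of all genes were called. With each of the members' 68 probe sets tested by itself, 59 were called up in CD4 and 61 in CD8 cells, and 0 down. All 38 means were higher, with medians of 1.46 in CD4 and 1.96 in CD8 cells, against -0.06 and -0.05 over all genes. Quantile normalization of the day 5 arrays turned 1 of the 38 CD4 values, that of Pold1, below 0. A fit of all 28 arrays, which adds the more variable day 2 arrays, called 15 in CD4 cells and 25 in CD8 cells. That fit called fewer of all genes too, 380 up and 238 down in CD4 cells and 246 and 114 in CD8 cells. Mki67, the proliferation marker, moved with the members and read 9.08 ± 0.10 (SD, n = 2) in CD4 transient and 12.03 ± 0.42 (n = 3) in CD4 continuous arrays, and 9.81 ± 0.36 (n = 3) and 11.96 ± 0.31 (n = 3) in the CD8 arrays.

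Licensing was again led by Cdc6 and Mcm5. Cdc6 read 6.34 and 6.07 in CD4 transient and 10.11, 9.67 and 10.38 in CD4 continuous arrays, a rise of 3.85 ± 0.57 (limma adjusted p = 0.000154). In CD8 cells it read 7.09, 6.49 and 6.78 in transient and 10.92, 10.75 and 10.04 in continuous arrays, a rise of 3.78 ± 0.51 (limma adjusted p = 0.000146). Mcm5 rose by 3.45 and 3.51, from 7.24 and 7.96 to 11.00, 10.75 and 11.38 in CD4 arrays and from 8.43, 7.93 and 8.36 to 12.18, 11.89 and 11.18 in CD8 arrays. No transient array reached a continuous one for either gene. All 10 licensing genes passed in both cell types with the probe sets that stood for them. The smallest were Orc6 in CD4 cells (0.89) and Cdt1 in CD8 cells (1.17). Other probe sets did not all pass. In CD4 cells 1 of 2 probe sets of Mcm4, 2 of 3 of Cdt1, 4 of 5 of Mcm3 and 3 of 4 of Mcm7 were called.

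Helicase activation genes rose by more than most. Gins1 read 6.47 and 6.59 in transient and 10.61, 10.27 and 10.78 in continuous CD4 arrays and rose by 4.02 ± 0.42, the largest change of any member in CD4 cells. Mcm10 read 7.05, 6.64 and 6.89 in transient and 10.77, 10.59 and 10.01 in continuous CD8 arrays and rose by 3.60 ± 0.30. Cdc45 had the smallest change of the 3, 1.94 in CD4 and 3.12 in CD8 cells. Its CD4 transient arrays, at 6.38 and 7.15, lay above the unstimulated ones at 5.60 and 5.16.

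Pcna and Rfc4 changed places between the cell types. Pcna read 11.07 and 11.44 in CD4 transient and 13.86, 13.75 and 13.92 in CD4 continuous arrays, and 12.58, 12.37 and 12.51 in transient and 13.98, 13.97 and 13.68 in continuous CD8 arrays. It rose by 2.58 ± 0.16 in CD4 cells and 1.39 ± 0.14 in CD8 cells, and the difference of -1.19 ± 0.22 passed (limma adjusted p = 0.00197). Rfc4 rose by 0.76 ± 0.23 in CD4 and 2.94 ± 0.20 in CD8 cells, a difference of 2.19 ± 0.30 (limma adjusted p = 0.000362) that its second probe set did not share. Rfc3 rose by 1.68 and 2.31 and Rfc5 by 1.68 and 1.95.

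Polymerase genes rose in both cell types, except for Pold1 in CD4 cells with the probe set that stood for it. Prim1 read 8.36 and 8.27 in transient and 11.51, 11.27 and 11.81 in continuous CD4 arrays, the largest change of the group there (3.21 ± 0.22). Pole read 6.68, 6.47 and 6.81 in transient and 9.39, 9.33 and 9.46 in continuous CD8 arrays, the largest there (2.74 ± 0.21). Pold1 read 9.37 and 9.00 in CD4 transient and 9.10, 8.99 and 9.55 in CD4 continuous arrays, so that the groups overlapped (0.03 ± 0.20, limma adjusted p = 0.928). The other Pold1 probe set rose by 1.095 in CD4 cells and was called. The other Pola2 probe set stood at 0.094 in CD4 cells and was not called. In CD8 cells the probe set that stood for Pold1 read 8.47, 8.49 and 8.24 in transient and 10.04, 9.87 and 9.62 in continuous arrays. It rose by 1.44 ± 0.18. Pola2 had the smallest CD8 change of the group at 1.27.

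Lig1 rose by 2.51 and 2.84, from 9.53 and 9.81 to 12.21, 11.80 and 12.53 in CD4 arrays, Fen1 by 0.76 and 1.71, Rpa2 by 1.08 and 1.07 and Rpa3 by 1.03 and 1.13. Rpa1 was the member whose probe set passed in neither cell type. It read 12.89 and 13.07 in transient and 13.29, 13.11 and 13.48 in continuous CD4 arrays (0.31 ± 0.13, limma adjusted p = 0.0846). The CD8 arrays read 12.94, 12.86 and 13.02 in transient and 13.23, 13.17 and 12.98 in continuous cells (0.19 ± 0.12). The other Rpa1 probe set rose by 0.992 in CD4 cells and was called. All 5 nucleotide supply genes passed in both cell types with the probe sets that stood for them. Only 1 of 3 Tyms probe sets was called in CD4 cells. Tk1 read 7.99 and 7.78 in transient and 11.06, 10.85 and 11.80 in continuous CD4 arrays and rose by 3.35 there and 2.88 in CD8 cells. Dut read 9.37 and 9.61 in transient and 12.95, 12.46 and 12.84 in continuous CD4 and 11.03, 11.09 and 10.99 in transient and 13.15, 13.00 and 12.33 in continuous CD8 arrays, rises of 3.26 and 1.79. Tyms had the smallest changes, 1.19 and 0.75, with 6.04, 6.21 and 5.67 in transient and 7.12, 6.97 and 6.08 in continuous CD8 arrays. Uhrf1 rose by 3.07 and 3.32, Dnmt1 by 0.49 and 1.02 and Chaf1b by 1.70 and 1.62.

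**Figure D3:**
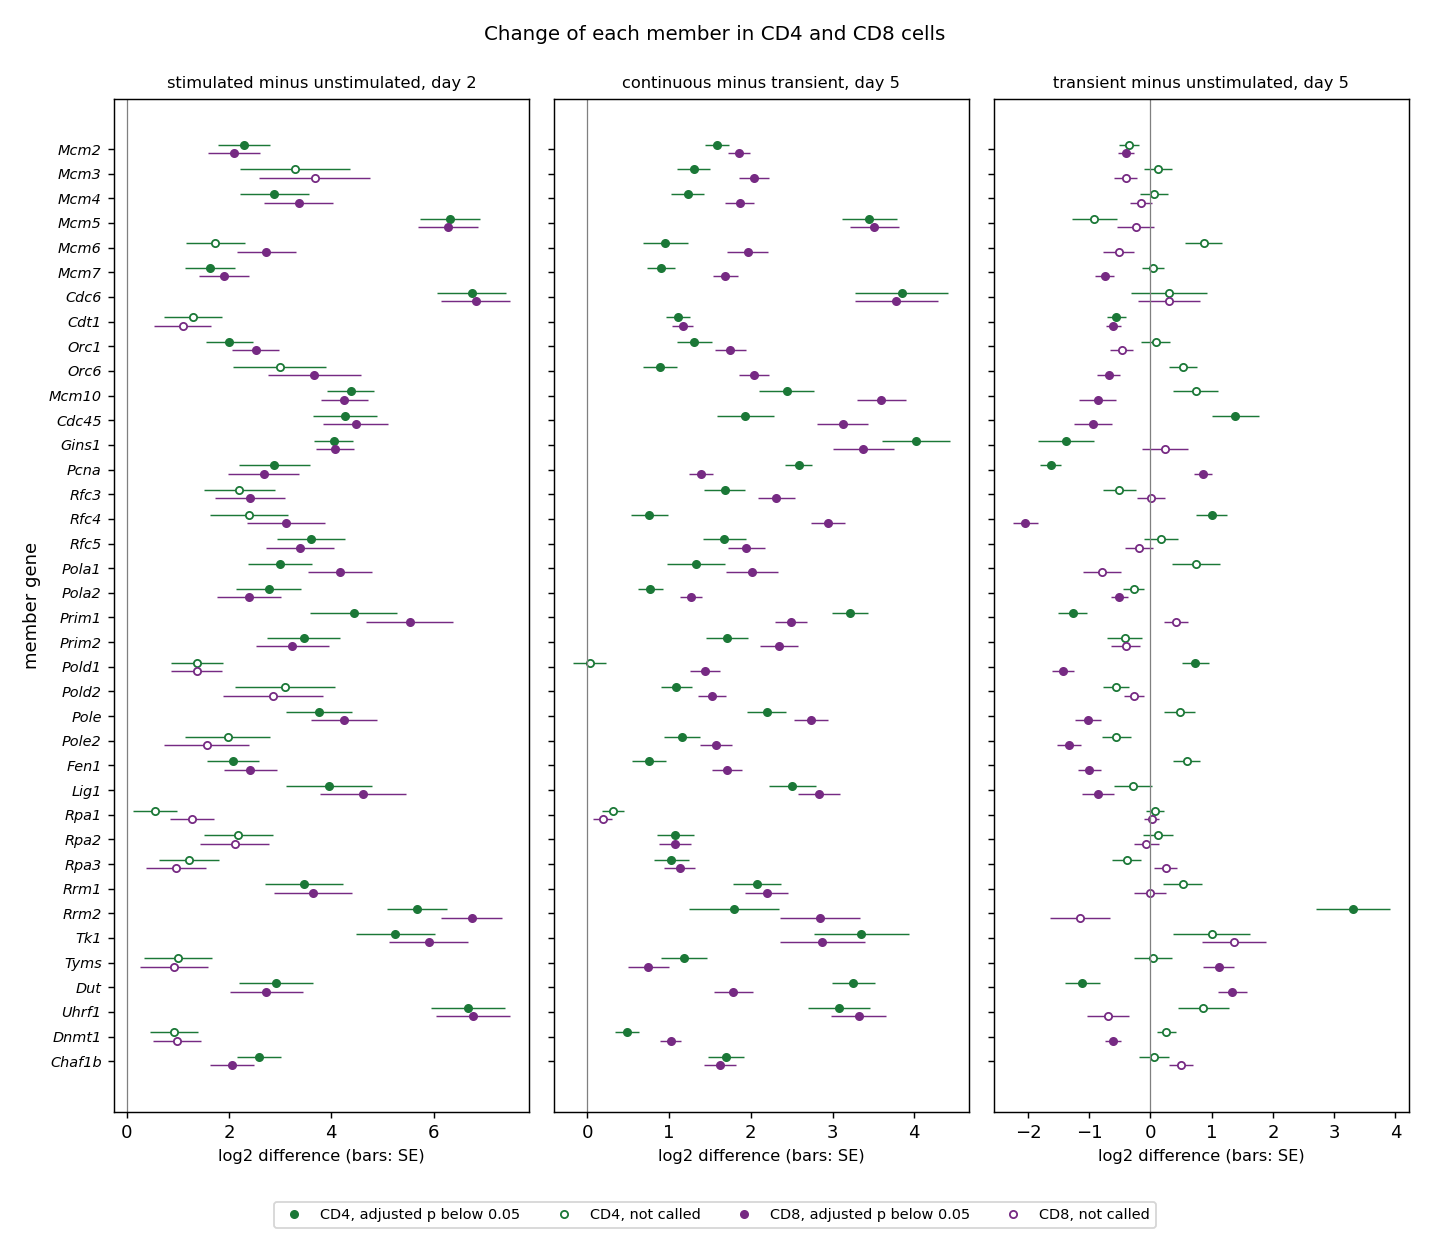
Log2 change of each member (points, with bars for the SE of the fit) in CD4 cells (green) and CD8 cells (purple) for 3 comparisons, filled where the adjusted p was below 0.05. Points lie to the right of 0 throughout the first and second panels and on both sides of 0 in the third, where Pcna, Rfc4, Pold1, Dut and Rrm2 differ between the cell types.

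Against cells never stimulated, continuous cells were higher as well. In CD4 cells 35 of 38 members passed upward and 0 downward, against 9.92% and 10.8% of all genes, with a median of 1.42. In CD8 cells 35 passed upward and 0 downward, against 21.4% and 25.9%, with a median of 1.70. The fit of all 28 arrays gave 14 and 22, where 241 and 676 of all genes were called up. Rrm2 had the largest CD4 change, from 7.93 and 6.88 to 12.64, 12.27 and 12.60 (5.10 ± 0.55, limma adjusted p = 3.6e-05). Tk1 had the largest CD8 change, from 8.84, 6.15 and 7.27 to 12.04, 11.83 and 11.09 (4.24 ± 0.52, limma adjusted p = 2.01e-05). The members that did not pass were Rpa1, Pold2 and Pole2 in CD4 cells (0.39, 0.53 and 0.60) and Rpa1, Pold1 and Pole2 in CD8 cells (0.21, 0.01 and 0.24). The beta-actin gap was 1.92 to 2.44 in CD8 unstimulated and 0.31 to 0.56 in CD8 continuous arrays, and its part was not tested.

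Rested cells were then compared with cells never stimulated, both from antigen-free hosts, which asks whether an earlier stimulation left a trace. The members gave no common direction in CD4 cells, where 4 were called up and 5 down, against 9.66% and 13.1% of all genes, shares close to the background. Cdc45 (1.39), Rfc4 (1.00), Pold1 (0.73) and Rrm2 (3.30) rose, and Cdt1 (-0.56), Gins1 (-1.38), Pcna (-1.63), Prim1 (-1.27) and Dut (-1.11) fell. Mki67, in contrast, was higher in each transient array, at 9.01 and 9.15, than in the unstimulated ones, at 8.02 and 6.80. Leaving out any 1 of the 4 arrays gave 1 to 3 members up and 2 to 3 down. The CD4 transient arrays are those with the high beta-actin 3' to 5' gap and the high B cell marker mean, and the part of either in these changes was not tested.

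In CD8 cells 3 members were called up and 14 down, against 16.3% and 15.5% of all genes, and the median was -0.40 against -0.08 over all genes. The 3 called up were Pcna (0.86), Tyms (1.11) and Dut (1.33), a share below that of all genes. The other Dut probe set was not called. With array weights 6 members were called up, where 2154 of all genes were. In the fit of all 28 arrays 0 members and 179 genes were. Those that fell were Mcm2, Mcm7, Cdt1, Orc6, Mcm10, Cdc45, Rfc4, Pola2, Pold1, Pole, Pole2, Fen1, Lig1 and Dnmt1, from -0.40 for Mcm2 to -2.05 for Rfc4. Pole2, the second subunit of polymerase epsilon, read 10.09, 9.93 and 10.15 in unstimulated and 8.72, 8.66 and 8.80 in transient arrays, with no overlap. Mki67 went the other way, with 9.78, 7.23 and 8.45 in unstimulated and 10.21, 9.51 and 9.70 in transient arrays, and its groups overlapped. Without the first unstimulated array, which had the highest myeloid marker mean at 10.05, 7 members were called up. Here the CD8 unstimulated arrays had the high beta-actin gap, and its part was not tested. The replicate numbers of these 2 groups deviated together in all 3 pairs, and with the number as a block 4 members were called up and 14 down.

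The CD8 and CD4 changes from unstimulated to transient differed for 18 members, 5 upward and 13 downward, against 18.5% and 18.9% of all genes. Leaving out 1 array gave 3 up without the first CD4 unstimulated, the second CD4 unstimulated, the first CD4 transient, the second CD8 unstimulated, the third CD8 unstimulated or the first CD8 transient array. Pcna read 12.88 and 12.89 in CD4 unstimulated arrays and 11.07 and 11.44 in transient ones, against 11.86, 11.33 and 11.68 in unstimulated and 12.58, 12.37 and 12.51 in transient CD8 cells. It fell in 1 cell type and rose in the other, a difference of 2.49 ± 0.23 (limma adjusted p = 2.25e-06). Dut went the same way, from 10.80 and 10.42 to 9.37 and 9.61 in CD4 and from 9.94, 9.19 and 9.97 to 11.03, 11.09 and 10.99 in CD8 cells (2.45 ± 0.37, limma adjusted p = 0.000161). Rrm2 went the other way, from 7.93 and 6.88 to 10.58 and 10.83 in CD4 cells and from 12.07, 9.45 and 10.72 to 9.96, 9.37 and 9.47 in CD8 cells. Its difference of -4.46 ± 0.78 (limma adjusted p = 0.000508) was the largest of any member, and the CD8 unstimulated arrays of Rrm2 were spread over more than 2 log2 units.

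Probe sets of the same gene disagreed in several of these comparisons. Of the 22 members with more than 1 probe set, Rfc4 had probe sets called in opposite directions in CD4 transient against unstimulated cells, at 1.00 for the one with the suffix _s_at, which stood for the gene, and -1.84 for the one with _at. In CD8 cells the same pair gave -2.05 and 0.72. Mcm6 gave -1.39 and 1.47, Prim1 1.68 and -1.75 and Rfc4 -3.04 and 2.57 for the difference between the cell types. For Rrm2, an _at probe set gave a difference between the cell types of 0.36, where the _x_at probe set that stood for the gene gave -4.46. The other probe set of Dut gave 0.50 (limma adjusted p = 0.317), where the one that stood for the gene gave 2.45. It was called in neither CD4 (-0.30) nor CD8 transient cells (0.20) against unstimulated ones. Opposite calls also occurred for Rfc4 in CD8 against CD4 transient cells (-1.48 and 1.22) and for Mcm3 in CD8 against CD4 continuous cells. No member had opposite calls in the day 2 stimulation comparisons or in the 4 comparisons of continuous cells with transient or unstimulated cells. With probe sets of the suffixes _s_at and _x_at left out, an alternative chosen after seeing the data, CD8 transient cells had 5 members up and 10 down, CD4 transient cells 1 up and 6 down, and the difference 7 up and 6 down.

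**Figure D4:**
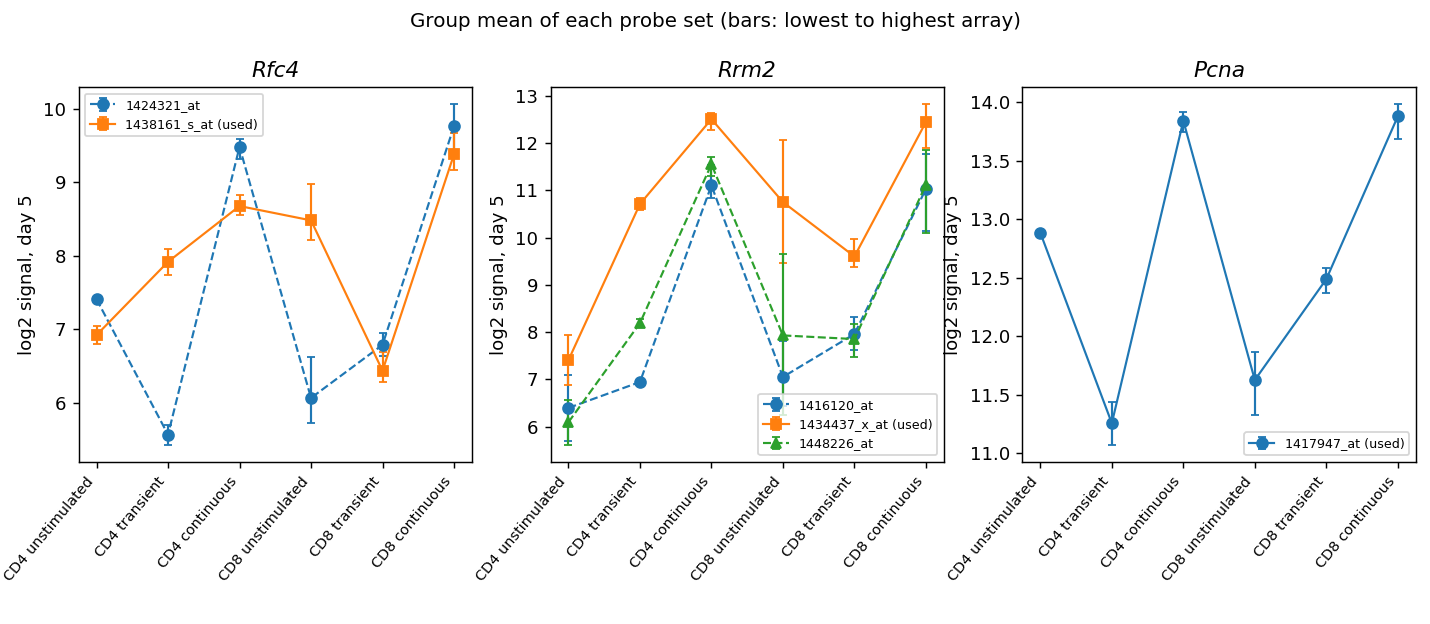
Mean log2 signal of each probe set of Rfc4, Rrm2 and Pcna in the 6 day 5 groups, with bars from the lowest to the highest array; solid lines mark the probe set that stood for the gene. Within each cell type the continuous group is highest for every probe set shown, and the 2 Rfc4 probe sets move in opposite directions between CD4 unstimulated and transient cells.

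The difference between the cell types in continuous minus transient cells was called for 5 members upward and 2 downward, against 8.13% and 10.7% of all genes. Upward were Mcm7 (0.79), Orc6 (1.16), Rfc4, Pold1 (1.41) and Fen1 (0.95), and downward Pcna and Dut (-1.47). The other probe set of Dut gave 0.30 (limma adjusted p = 0.65), in the opposite direction. In CD4 cells the other Pold1 probe set rose by 1.095, against 0.03 for the one that stood for the gene. Without probe sets of the suffix _s_at or _x_at, 1 member was called upward. Leaving out 1 array gave 2 up without the first CD4 transient array, 3 up without the second CD4 continuous, the first CD8 continuous or the second CD8 continuous array, 9 up without the third CD8 continuous array and 1 down without the first CD4 transient array. In continuous minus unstimulated cells it was called for 3 upward and 2 downward, against 11.3% and 8.46%. Upward were Pcna (1.30), Rfc3 (1.15) and Prim1 (0.97), and downward Pole (-0.95) and Rrm2 (-3.41). Leaving out 1 array gave 1 up without the first CD4 unstimulated, the second CD4 continuous, the second CD8 unstimulated, the first CD8 continuous or the second CD8 continuous array, 7 up without the third CD8 continuous array, 1 down without the first CD4 unstimulated, the second CD4 unstimulated, the second CD4 continuous, the third CD4 continuous, the first CD8 unstimulated, the second CD8 continuous or the third CD8 continuous array and 6 down without the second CD8 unstimulated array. Transient and unstimulated groups that carry the high beta-actin gap enter each of these differences.

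CD8 transient cells against CD4 transient cells gave 7 members up and 3 down, against 15.4% and 11.7% of all genes, shares near the background. The CD8 arrays had a beta-actin gap of 0.66 to 1.02 and a B cell marker mean of 5.49 to 5.90, against 2.42 and 2.73 and 7.19 and 8.78 in the CD4 arrays, and the part of either was not tested. Leaving out 1 array gave 4 up without the second CD4 transient array and 1 down without the first CD4 transient array. Higher in CD8 cells were Cdt1 (0.51), Pcna (1.23), Prim1 (1.06), Pold2 (0.54), Tyms (0.96), Dut (1.54) and Chaf1b (0.91), and lower were Mcm6 (-1.06), Rfc4 (-1.48) and Pold1 (-0.79). The 3 lower ones were measured with probe sets of the suffix _s_at or _x_at, and none was called lower without such probe sets. The other probe set of Dut gave 0.32 here and was not called.

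Under continuous antigen the comparison of CD8 with CD4 cells rests on arrays with like beta-actin gaps (0.31 to 0.62). The CD8 cells carried the OT1 and the CD4 cells the AND transgene. Cell type, receptor, and antigen or host line cannot be told apart here. CD8 cells held somewhat more of the replication transcripts, with 13 of 38 members called higher and 0 lower, against 6.58% and 4.62% of all genes, and a median of 0.44 against -0.004. The third CD8 array has the lowest member median of its group (10.54, against 11.16 and 11.27), and the third CD4 array the highest (11.09, against 10.47 and 10.75). Without the third CD8 array 16 members were called and without the third CD4 array 11, whereas 2 were called without the first CD4, the second CD4 or the first CD8 array, and 3 without the second CD8 array. These fits called between 469 and 828 of all genes up. In the fit of all 28 arrays 0 members were called, where 12 of 12393 genes were called up and 16 down.

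Polymerase subunits took 5 of the 13 calls. Pold2 read 8.95, 9.27 and 9.08 in CD4 and 10.26, 10.14 and 9.81 in CD8 arrays, with no overlap (0.97 ± 0.17, limma adjusted p = 0.00277). Pola2 read 8.95, 8.96 and 9.30 and 9.89, 9.88 and 9.66 (0.74 ± 0.14, limma adjusted p = 0.00399), and Prim2 8.47, 8.08 and 8.87 and 9.59, 9.12 and 9.13 (0.81). These 3 pairs of groups did not overlap. Pold1 read 9.10, 8.99 and 9.55 and 10.04, 9.87 and 9.62 (0.63) and Pole 8.39, 8.55 and 9.11 and 9.39, 9.33 and 9.46 (0.71). Every CD8 array lay above every CD4 array for both of these too.

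Licensing genes took 4 calls. Mcm3 read 11.27, 11.40 and 11.64 in CD4 and 12.24, 12.21 and 12.02 in CD8 arrays (0.72 ± 0.18), and 4 of its 5 probe sets were called higher while the remaining one was called lower (-0.98). Orc6 read 9.18, 9.25 and 9.47 and 10.31, 10.05 and 9.69 (0.71) and Cdt1 11.93, 11.86 and 12.30 and 12.72, 12.57 and 12.49 (0.56). Mcm7 read 12.20, 12.26 and 12.75 and 13.06, 12.93 and 12.80 (0.53). The groups of all 4 genes were separate, Mcm7 by the least. Of the loader, Rfc3 read 7.87, 7.48 and 7.85 and 8.81, 8.79 and 8.07 (0.82) and Rfc4 8.66, 8.55 and 8.82 and 9.67, 9.30 and 9.17 (0.70). Chaf1b read 7.90, 7.84 and 8.28 and 9.21, 8.89 and 8.42 (0.83) and Dnmt1 11.68, 11.66 and 12.03 and 12.29, 12.23 and 12.13 (0.43). These 4 genes also had separate groups. No helicase activation or nucleotide supply member passed, and Pcna was level at 13.86, 13.75 and 13.92 in CD4 and 13.98, 13.97 and 13.68 in CD8 arrays (0.04 ± 0.14).

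**Figure D5:**
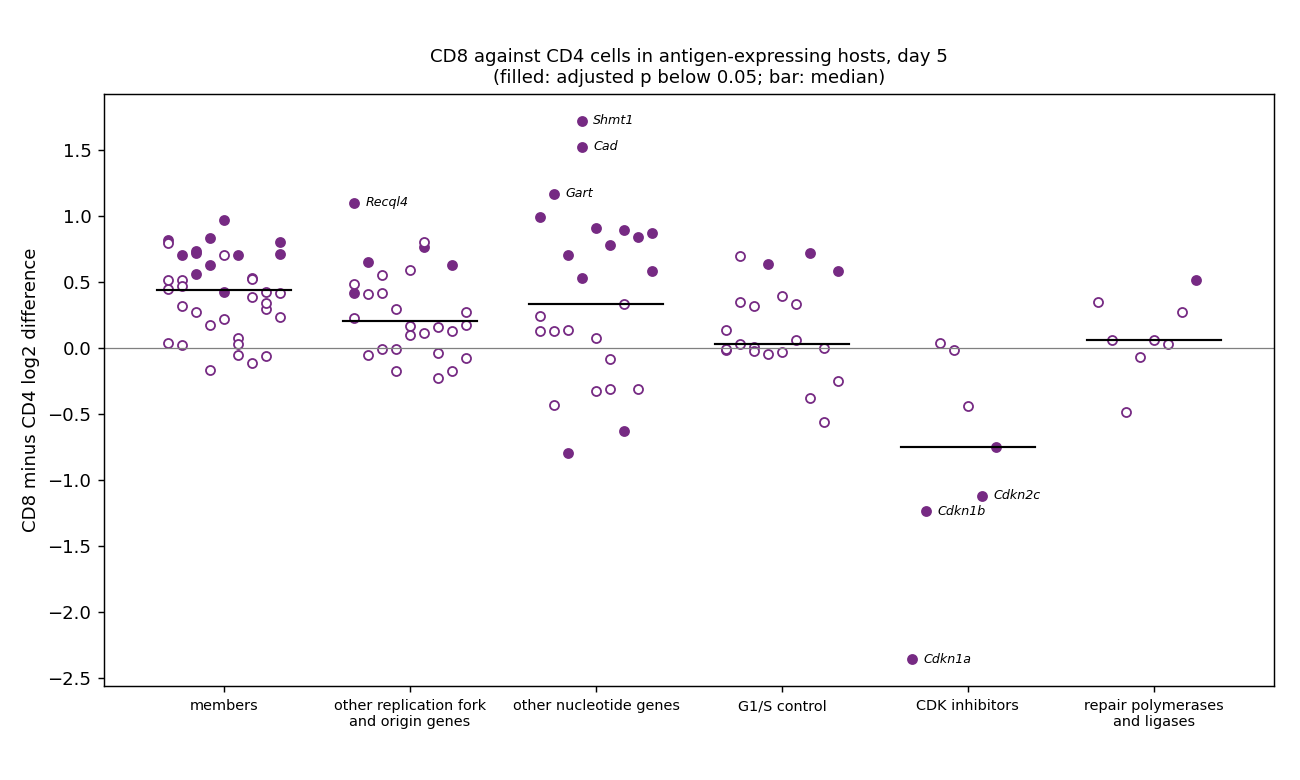
CD8 minus CD4 log2 difference in continuous cells for the 38 members and 5 further gene lists (points are genes, filled where the adjusted p was below 0.05; bars are medians). The members lie mostly above 0 with a median of 0.44, and the CDK inhibitors mostly below 0 with Cdkn1a at -2.36.

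Other genes of the same machinery were read from lists made with earlier results of these data known. Of 28 measured further fork and origin genes, 13 rose and 0 fell on day 2 in CD4 cells and 15 and 0 in CD8 cells, against 10.7% up and 0.718% down of all genes in CD4 and 7.49% and 0.863% in CD8 cells. They were led by Top2a, the S and G2 phase topoisomerase (5.08 and 5.84) and Exo1, a repair and fork nuclease (4.44 and 4.63). In continuous against transient cells 14 rose and 2 fell in CD4 cells and 21 rose and 1 fell in CD8 cells, against 17.6% up and 16.5% down of all genes in CD4 and 13.6% and 13.6% in CD8 cells. The list medians were 0.53 and 0.91. The largest were Asf1b, a histone chaperone of the fork (2.54), Top2a (2.19) and Exo1 (1.97) in CD4 cells and Dna2 (3.31), Exo1 (3.14) and Asf1b (2.71) in CD8 cells. Gmnn, the geminin that blocks Cdt1, rose with them, by 1.80 and 2.02.

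Of 25 measured further nucleotide genes, 8 rose and 7 fell in CD4 and 15 rose and 5 fell in CD8 continuous against transient cells, with medians of 0.08 and 0.64, against the same 17.6% and 16.5% of all genes in CD4 and 13.6% and 13.6% in CD8 cells. Uck2, the uridine-cytidine kinase, rose by 1.97 and 1.74, and Shmt1, a serine hydroxymethyltransferase that serves thymidylate synthesis, by 2.78 in CD8 cells. Rrm2b, the reductase subunit of non-dividing cells, fell in both cell types (-1.88 and -0.64), with group means of 10.00 ± 0.02 (SD, n = 2) in CD4 transient and 8.12 ± 0.26 (n = 3) in CD4 continuous cells. Samhd1, which breaks down dNTPs, stood at 0.05 in CD4 cells and fell in CD8 cells (-0.69). Between the cell types under continuous antigen, 12 of these 25 genes were higher and 2 lower in CD8 cells, again against 6.58% and 4.62% of all genes. The largest were Shmt1 (1.72 ± 0.30), Cad, which starts pyrimidine synthesis (1.52 ± 0.16), and Gart, a purine synthesis enzyme (1.17 ± 0.17), and the 2 lower were Samhd1 (-0.79) and Dck, the deoxycytidine salvage kinase (-0.62), the last named after its value was seen.

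Of 21 measured G1/S control genes, 12 rose and 2 fell in CD4 and 14 rose and 0 fell in CD8 continuous against transient cells, with medians of 0.62 and 1.02, against 17.6% and 16.5% of all genes in CD4 and 13.6% and 13.6% in CD8 cells. Ccna2, the S phase cyclin, rose by 4.50 and 2.94, E2f8 by 3.13 and 2.78 and Ccne2 by 2.14 and 3.02. E2f1 rose by 0.84 and 1.27. Rbl2, the pocket protein p130 of resting cells, rose in CD4 cells (1.62) and stood at -0.50 in CD8 cells. No probe set named E2f2 was analysed here. Of 8 measured repair polymerases and ligases, 2 rose and 1 fell in CD4 cells and 2 rose and 0 fell in CD8 cells, against the same shares of all genes, 8 genes being too few to read more from. Among them was Polh, the translesion polymerase, at 2.47 and 1.10.

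Of the 7 measured CDK inhibitors, 0 were higher and 4 lower in CD8 than in CD4 continuous cells, with a median of -0.75, against 6.58% up and 4.62% down of all genes. Cdkn1a, which encodes p21 and binds both CDKs and PCNA, read 9.80 ± 0.71 (SD, n = 3) in CD4 and 7.44 ± 0.25 (n = 3) in CD8 continuous cells (-2.36 ± 0.32, limma adjusted p = 0.000591). On day 2 it had risen in both, by 5.81 and 5.33. Cdkn1b, which encodes p27, was lower too (-1.23 ± 0.21), as were Cdkn2c (-1.12) and Cdkn2d (-0.75), the last named after its value was seen. Against transient cells, Cdkn1b fell in CD8 continuous cells (-1.42) and stood at 0.52 in CD4 cells, while Cdkn1a rose in CD4 cells (2.64) and stood at 0.61 in CD8 cells.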

How the data were processed

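The deposited values are log2 signals per probe set of 28 Affymetrix arrays, summarised with RMA by the authors per the submitters' processing notes; the RMA version and the arrays normalized together are not given in the sources used here. Of 22690 probe sets, 64 controls, 691 with several symbols and 1555 with none were left out, and 20351 of the other 20380 matched a reference gene. The probe set with the highest mean stood for each of 12393 genes.

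Log2 values were fitted with limma 3.58.1 in R 4.3.3 (lmFit, eBayes), with 12 day 2 arrays, 16 day 5 arrays or, between days, all 28 in 1 fit, and called at a Benjamini-Hochberg adjusted p below 0.05 over all genes. Scripts were tested on simulated data. Array number limits the precision, and p-values measure the spread between these samples. The members, gene lists and tests were chosen with earlier results of these data known. All members could be named; of the other lists, up to 3 called genes with the largest change, and some genes named in advance, were. Same-numbered arrays deviated together in all 3 pairs only for CD8 transient against unstimulated cells (r = 0.498, 0.358 and 0.149). The main fits did not take numbers as pairs in any comparison, that one included. The replicate block was run as an alternative for every comparison. Alternatives were quantile normalization, median centring, averaged probe sets, a filter that drops the dimmest 30% of genes, array weights, a replicate block, other sets of arrays and leaving out each array. Promoter letters came from RefSeq GRCm38.p6.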

Additional observations from a re-analysis of the deposited data

Results flagged for a closer look

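In 30 instances the CD8 and CD4 change of a member differed by the test of the difference itself (limma, adjusted p below 0.05), all on day 5. Many of all genes differed too. Of these, 18.5% were called up and 18.9% down from unstimulated to transient cells. The shares were 8.13% and 10.7% from transient to continuous and 11.3% and 8.46% from unstimulated to continuous cells. From unstimulated to transient cells, the CD8 minus CD4 difference (log2) was positive for Gins1 (1.62), Pcna (2.49), Prim1 (1.68), Tyms (1.08) and Dut (2.45). It was negative for Mcm6 (-1.39), Mcm7 (-0.79), Orc6 (-1.21), Mcm10 (-1.60), Cdc45 (-2.32), Rfc4 (-3.04), Pola1 (-1.54), Pold1 (-2.16), Pole (-1.50), Fen1 (-1.59), Rrm2 (-4.46), Uhrf1 (-1.56) and Dnmt1 (-0.88). Of these, Cdc45 (1.39 in CD4 and -0.93 in CD8 cells), Pcna (-1.63 in CD4 and 0.86 in CD8 cells), Rfc4 (1.00 in CD4 and -2.05 in CD8 cells), Pold1 (0.73 in CD4 and -1.43 in CD8 cells) and Dut (-1.11 in CD4 and 1.33 in CD8 cells) were called in opposite directions in the cell types. Opposite calls between probe sets of 1 gene were seen in this comparison for Mcm6, Prim1 and Rfc4, so their sign depends on the probe set. For Dut the other probe set gave 0.50 in this comparison and 0.30 from transient to continuous cells, neither called.

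From transient to continuous cells, the difference was positive for Mcm7 (0.79), Orc6 (1.16), Rfc4 (2.19), Pold1 (1.41) and Fen1 (0.95). It was negative for Pcna (-1.19) and Dut (-1.47). In CD4 cells the 2 Pold1 probe sets rose by 0.03 and 1.095, the second of them called. From unstimulated to continuous cells, it was positive for Pcna (1.30), Rfc3 (1.15) and Prim1 (0.97) and negative for Pole (-0.95) and Rrm2 (-3.41).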

How the results depend on the processing

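Counts of called members were recomputed under each alternative, and with a change over 1.5 times taken as moved, leaving out the lowest 30% of genes and the replicate block moved none of the 38 counts. In the pairing of CD8 transient with unstimulated cells the replicate block gave 4 up and 14 down. The cause of the following moves was not tested, and calls over all genes moved with the setting too. For CD8 minus CD4 in continuous cells, for example, 816 genes were called up in the main fit. The fit of all 28 arrays called 12. With all 28 arrays in 1 fit, calls up and down in transient minus unstimulated cells were 1 and 0 (CD4) and 0 and 1 (CD8), calls up in continuous minus transient CD4 cells 15, in continuous minus unstimulated cells 14 (CD4) and 22 (CD8), and calls up and down of the CD8 minus CD4 differences 0 and 2 (transient minus unstimulated), 0 and 0 (continuous minus transient) and 0 and 0 (continuous minus unstimulated); CD8 minus CD4 gave 0 and 0 in transient and 0 up in continuous cells. With the mean of probe sets, CD4 transient minus unstimulated gave 3 down, the difference of transient minus unstimulated 7 down, that of continuous minus transient 3 up and 1 down, that of continuous minus unstimulated 1 up and 0 down, and CD8 minus CD4 transient 1 down. Array weights gave 6 up for CD8 minus CD4 stimulated cells, 6 up for CD8 transient minus unstimulated, 11 up and 7 up for the differences of continuous minus transient and minus unstimulated, and, against day 2 stimulated cells, 34 down (CD4 transient), 7 up and 13 down (CD4 continuous), 1 up (CD8 transient) and 11 up and 4 down (CD8 continuous). Fits of only the 2 groups gave 34 down, 8 up and 10 down, 1 up, and 7 up and 4 down for the same 4. Quantile normalization gave 8 up for the difference of continuous minus transient, 4 down for that of continuous minus unstimulated, 2 up and 3 down for CD4 and 2 up for CD8 continuous against day 2, and median centring 2 up for each of these. Without the third unstimulated array of each cell type 1 member had a smaller CD8 response.

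Without probe sets of the suffix _s_at or _x_at, chosen after seeing the data, CD4 transient minus unstimulated gave 1 up, CD8 5 up, the differences 6 down (transient minus unstimulated), 1 up (continuous minus transient) and 5 up and 1 down (continuous minus unstimulated), and CD8 minus CD4 transient 0 down. Signs then turned for Rfc4 (-1.84 in CD4 and 0.72 in CD8 transient minus unstimulated, differences 2.57, -0.94 and 1.63 in the order above, 1.22 for CD8 minus CD4 transient), Mcm6 (0.70 in CD8 transient minus unstimulated, differences 1.47 and, for continuous minus unstimulated, 1.27, and 0.62 for CD8 minus CD4 transient), Pold1 (-0.083 in CD4 transient minus unstimulated), and Fen1 and Dnmt1 (differences of transient minus unstimulated 0.16 and 0.36). With the mean of probe sets they turned for Rfc4 (-0.42 in CD4 transient minus unstimulated), Pola2 (-0.025 in CD4 continuous minus unstimulated), and in the difference of transient minus unstimulated for Mcm6 (0.042), Prim1 (-0.034) and Rpa1 (0.68).

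With 1 array left out at a time, the counts ranged over 16 to 30 up for CD4 stimulated minus unstimulated, day 2, 16 to 31 up for CD8 stimulated minus unstimulated, day 2, 1 to 3 up for CD4 transient minus unstimulated, 2 to 3 down for CD4 transient minus unstimulated, 30 to 37 up for CD4 continuous minus transient, 30 to 35 up for CD4 continuous minus unstimulated, 3 to 7 up for CD8 transient minus unstimulated, 10 to 18 down for CD8 transient minus unstimulated, 36 to 37 up for CD8 continuous minus transient, 34 to 36 up for CD8 continuous minus unstimulated, 3 to 4 up for the difference of transient minus unstimulated, 9 to 14 down for the difference of transient minus unstimulated, 2 to 9 up for the difference of continuous minus transient, 1 to 2 down for the difference of continuous minus transient, 1 to 7 up for the difference of continuous minus unstimulated, 1 to 6 down for the difference of continuous minus unstimulated, 4 to 6 up for CD8 minus CD4, transient, 1 to 3 down for CD8 minus CD4, transient, 2 to 16 up for CD8 minus CD4, continuous, 11 to 15 down for CD4 transient day 5 minus stimulated day 2, 0 to 1 down for CD4 continuous day 5 minus stimulated day 2 and 20 to 23 down for CD8 transient day 5 minus stimulated day 2. The other 16 counts stayed at 0.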
